A study of Cricetulus griseus with 10 samples.

Results

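The genes described here encode the collagen IV, laminin, nidogen and perlecan proteins of the basement membrane, followed through the adaptation of CHO-K1 cells to growth in suspension. CHO-K1 is an established wild-type line of Chinese hamster ovary cells. The genes were chosen by name: Col4a1, Col4a2, Lama4, Lama5, Lamb1, Lamb2, Lamc1, Nid1, Nid2 and Hspg2. Of these 10 genes, 8 were matched among the 25156 features of the deposited table, 7 by symbol and Nid2 by its gene number. Nid1 and Hspg2 were not matched to a feature and have no value here. RNA was sequenced at passages 0, 2, 4, 6 and 10 (P0, P2, P4, P6 and P10), with 2 libraries per passage and 10 in all. All groups are the same wild-type line, and adaptation took place in the medium SFM4CHO. The labels do not describe how the P0 cells were grown, nor whether the 2 libraries of a passage came from separate cultures. The p-values below therefore measure only the spread between these libraries, which may be technical.

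Basement membranes are thin sheets of extracellular matrix that lie under epithelia and endothelia and around muscle, fat and nerve cells. Laminins, secreted as trimers of an alpha, a beta and a gamma chain, bind cell surface receptors and form the first layer, and collagen IV, a triple helix built in most tissues from the Col4a1 and Col4a2 chains, forms a second, covalently cross-linked network. Nidogens bridge laminin to collagen IV, and the heparan sulfate proteoglycan perlecan, the product of Hspg2, binds to both. Cells attached to such a matrix hold it mainly through integrins, dystroglycan and discoidin domain receptors.

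The libraries held 8394219 to 16599495 reads. Values are normalised reads: read counts that the authors divided by a size factor for each library. P6 replicate 2 and P10 replicate 1 stood apart from the other libraries, with scores of 83.3 and 67.4 on the first principal component (48.9% of the variance). P6 replicate 1 lay at 34.4, and the other 7 libraries, P10 replicate 2 at -25.0 among them, lay between -37.3 and -18.8. Leaving out both libraries that stood apart thus leaves P10 to a library that scored like the earlier passages. The 2 libraries of P10 correlated at 0.930 and those of P6 at 0.956 across genes, against 0.988 to 0.992 at the earlier passages. Calls at P6 or P10 against P0 that were lost without one of these libraries are given with the value without it. Endothelial cells make basement membrane in tissues, and their markers were uneven here: Cldn5 had no read in any library, Cdh5 did not exceed 3.37 normalised reads and Kdr did not exceed 5.62, while Flt1 was at 37.5 to 124, Tek at 13.99 to 69.7, Vwf at 17.9 to 47.2 and Pecam1 at 16.9 to 42.5. Of the epithelial keratins, Krt8 did not exceed 4.95, and Krt18 and Krt19 did not exceed 1.69. In bulk RNA of this kind, fewer cells of a type and less RNA per cell cannot be told apart.

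Collagen IV and laminin genes took different courses. Col4a1 and Col4a2 rose steeply from P0 to P4 and stayed high. Nid2 rose by less, and Lama5 and Lamc1 fell late. At P2 against P0, 2 of the 8 members passed limma's test and both rose, beside 4.15% of all 13521 features tested (2.08% rose and 2.07% fell). At P4 there were 3 that rose and 0 that fell, beside 9.24% of all features (3.72% rose and 5.52% fell). At P6, 3 rose and 2 fell, where 21% of all features passed (10.5% in each direction). The same counts, 3 up and 2 down, were found at P10 beside 17% of all features (8.77% rose and 8.25% fell). The median log2 change of the 8 members was 0.66, 0.78, -0.08 and -0.01 at the 4 passages, beside 0.01, 0.03, -0.07 and 0.00 for all features tested. All 8 members passed the filter on low values, a mean of at least 10. Col4a2 did so only through the passages after P0, where it was high. These 4 comparisons share the P0 libraries and are not independent of each other.

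Col4a1, which supplies a pair of the chains of the common collagen IV helix, was at 80.1 and 66.1 normalised reads in the P0 libraries. It reached 1369 and 1267 at P2, and 3920 and 4214 at P4. At P6 it was at 4117 and 3587, and at P10 at 2547 and 3108. No library of a later passage came near the P0 level. The P4 and P6 libraries held the highest values, and those of P10 lay between P2 and P6. Means were 73.1 ± 9.92 (SD, n = 2) at P0, 1318 ± 72.2 at P2, 4067 ± 208 at P4, 3852 ± 375 at P6 and 2827 ± 397 at P10. The ratio to P0 was 18.0-fold at P2, 55.6-fold at P4, 52.7-fold at P6 and 38.7-fold at P10. On the log2 scale the difference from P0 was 4.16 ± 0.18 (SE) at P2 with a limma adjusted p of 1.15e-05. It was 5.78 ± 0.18 at P4, with a limma adjusted p of 2.45e-06. At P6 and P10 it was 5.70 and 5.25, with limma adjusted p-values of 2.85e-06 and 5.84e-06.

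Col4a2, the other chain of the same helix, followed the same course with far fewer reads. The P0 libraries held 5.23 and 4.31 normalised reads, the worth of 6 and 3 reads. Its values were 54.2 and 50.3 at P2, 119 and 120.0 in the P4 libraries, 175 and 126 in those of P6, and 76.8 and 129 in those of P10. As for Col4a1, all 8 later libraries exceeded both P0 libraries, but P10 replicate 1 was well below P10 replicate 2. Log2 differences from P0 were 3.21, 4.39, 4.70 and 4.13 (SE 0.32 each), with limma adjusted p-values of 0.00131, 0.000191, 0.000114 and 0.000241. Because the P0 level rests on 9 reads in all, the size of the rise is loosely fixed: the ratio of pooled reads to P0 was 24.4 at P4, with an exact 95% counting interval of 12.6 to 54.2. At P2 this ratio was 10.7 (5.42 to 24.1), at P6 31.7 (16.5 to 69.8) and at P10 21.3 (11.0 to 47.0). The intervals cover counting error only. Both collagen IV genes passed in every alternative setting tried for the 4 comparisons with P0, and the highest limma adjusted p with any 1 library left out was 0.0262, for Col4a2 at P2.

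**Figure D1:**
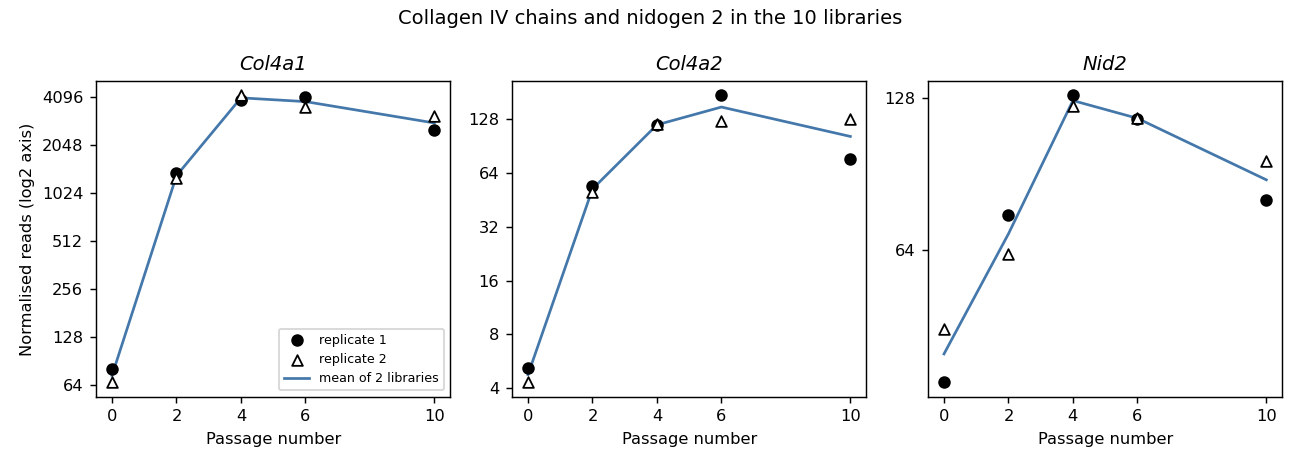
Normalised reads (log axes) of Col4a1, Col4a2 and Nid2 against passage number in each of the 10 libraries. Filled circles are replicate 1, open triangles replicate 2, and the line joins the means of the 2 libraries; all 3 genes climb to P4, and Col4a1 goes from 80.1 and 66.1 at P0 to 3920 and 4214 there.

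Nid2, the nidogen that was measured, rose by a smaller factor than collagen IV and first passed at P4. Its libraries held 34.8 and 44.6 normalised reads at P0, 75.0 and 62.6 at P2, 130 and 124 in the P4 libraries, 117 and 117 in those of P6, and 80.2 and 96.0 in those of P10. All later libraries were above both P0 libraries, and the P4 pair was the highest. The log2 difference from P0 was 0.78 ± 0.24 (SE) at P2 and did not pass (limma adjusted p 0.119). It rose by 1.66 at P4, by 1.54 at P6 and by 1.13 at P10, with limma adjusted p-values of 0.00526, 0.00479 and 0.0158. These correspond to ratios of means of 3.19, 2.94 and 2.22. Each of the 3 calls was lost without P0 replicate 1, with limma adjusted p-values of 0.0678, 0.0572 and 0.133. The call at P4 was also lost without either P4 library (0.0773 and 0.0699), and that at P10 without P0 replicate 2 (0.0531). With only P0 and P10 in the fit, the P10 call was lost too.

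No laminin chain among the members rose past the test against P0, and a pair of them fell late. Lamc1, the gamma chain shared by most laminins, held 10544 and 8179 normalised reads at P0, and 8008 and 9213 after 2 passages. Its P4 libraries were at 6490 and 6995, its P6 libraries at 4839 and 5243, and its P10 libraries at 3925 and 4511. The means went down at every passage, and from P4 on every library was below both P0 libraries. The log2 difference from P0 was -0.11 at P2 and -0.46 at P4, neither of which passed (limma adjusted p 0.853 and 0.208). It fell by 0.88 ± 0.20 (SE) at P6 and by 1.14 ± 0.20 at P10, with limma adjusted p-values of 0.0199 and 0.00843. Without P0 replicate 1 neither call held, at -0.70 (limma adjusted p 0.159) for P6 and -0.96 (0.0962) for P10. The P10 call was also lost with only P0 and P10 in the fit. The P6 call was also lost without P0 replicate 2 (0.0553), without P6 replicate 1 (0.0578), and with library totals set equal (-0.67, 0.0724).

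Lama5, the alpha chain widespread in adult epithelial and vascular basement membranes, varied more between replicates. It was at 10567 and 6331 normalised reads at P0, 6430 and 8568 at P2, and 6012 and 7680 at P4. Values dropped to 3517 and 2907 at P6 and to 1768 and 4018 at P10. The 4 libraries of P6 and P10 were below all 6 earlier libraries, while P0, P2 and P4 overlapped. The log2 difference from P0 was -0.14 at P2 and -0.27 at P4 (limma adjusted p 0.911 and 0.748). It fell by 1.35 ± 0.40 (SE) at P6 and by 1.62 ± 0.40 at P10, with limma adjusted p-values of 0.0425 and 0.0263. The P6 call was lost in 8 of the 10 fits that left out 1 library, at limma adjusted p-values from 0.0687 to 0.251, and without P6 replicate 2 the difference was -1.22 (0.160). The P10 call held in 5 of those 10 fits and was lost without P0 replicate 1 (0.199), P0 replicate 2 (0.0597), P4 replicate 1 (0.0512), P4 replicate 2 (0.0510) or P10 replicate 1, where the difference was -1.03 (0.0576). Leaving out P6 replicate 2 as well cannot change that difference. With only P0 and P10 in the fit, the fall at P10 did not pass (limma adjusted p 0.163).

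Lama4, the alpha chain found mainly around vessels, muscle and fat, had few reads. Its values were 46.2 and 76.2 normalised reads at P0, 108 and 97.2 at P2, 114 and 140 in the P4 libraries, 82.2 and 50.6 in those of P6, and 54.0 and 130 in those of P10. The P2 and P4 libraries exceeded both P0 libraries, those of P6 and P10 overlapped with them, and the P10 pair spanned nearly the whole range. Log2 differences from P0 were 0.78, 1.08, 0.12 and 0.49 (SE 0.44 each), and none passed (limma adjusted p 0.405, 0.176, 0.858 and 0.485). Without P6 replicate 2 and P10 replicate 1 the spread was smaller, and Lama4 at P10 was 1.12 higher than at P0 on the log2 scale. In that fit the lone library of P6 and of P10 is assumed to vary like the other groups.

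Lamb1, the beta chain of most early and widespread laminins, was measured at 14470 and 12716 normalised reads at P0, 19269 and 20001 at P2, and 19300 and 18457 at P4. It then was at 12214 and 10295 at P6 and at 8351 and 10825 at P10. The P2 and P4 libraries were above both P0 libraries, and the P6 and P10 libraries below both. No comparison with P0 passed limma's test: the log2 differences were 0.53, 0.48, -0.27 and -0.51 (SE 0.23 each), with limma adjusted p-values of 0.264, 0.255, 0.401 and 0.165. DESeq2 on the same libraries called Lamb1 at P10. Leaving out both libraries that stood apart cannot change the differences at P2 and P4, which rest on other libraries. At P6 and P10 the differences were then -0.15 and -0.33.

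Lamb2, the beta chain of vessel, kidney and neuromuscular basement membranes, was at 1780 and 1439 normalised reads at P0, 1728 and 2511 at P2, and 1959 and 2034 at P4. P6 held 1415 and 901, and P10 held 732 and 1318. All 4 libraries of P6 and P10 lay below all 6 earlier ones, and the lowest were P6 replicate 2 and P10 replicate 1. Its log2 differences from P0 were 0.38, 0.32, -0.50 and -0.70 (SE 0.33 each), none of which passed (limma adjusted p 0.623, 0.618, 0.280 and 0.173). The difference at P10 was -0.28 (limma adjusted p 0.258) without the 2 libraries that stood apart.

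**Figure D2:**
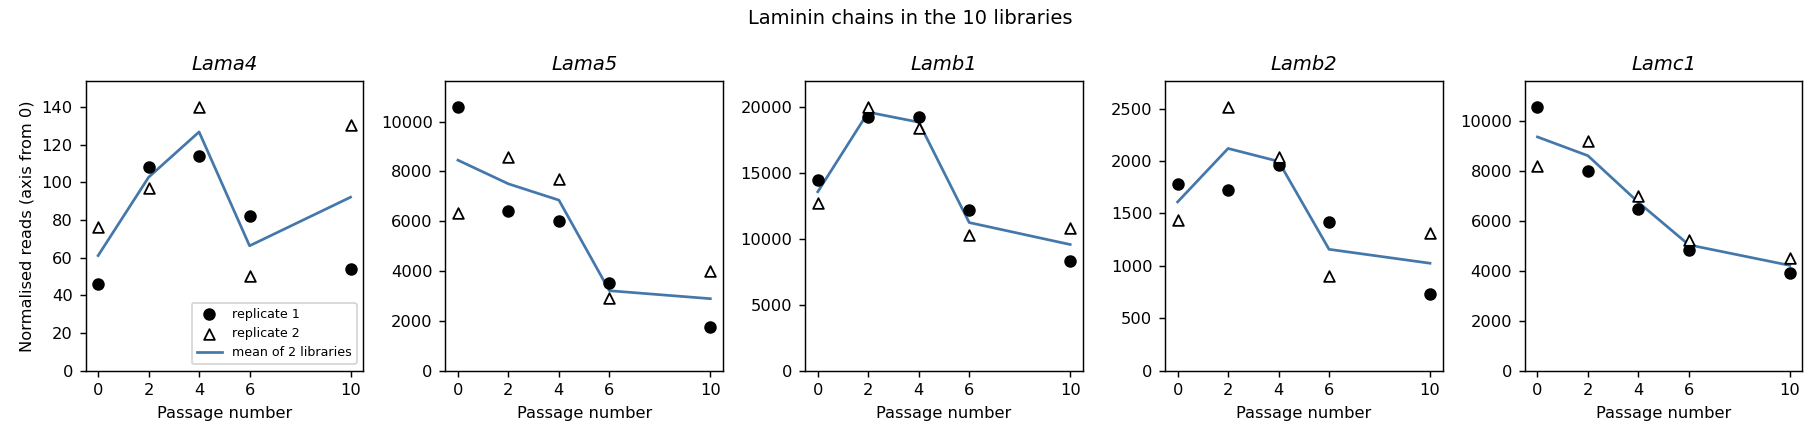
Normalised reads (linear axes from 0) of the 5 laminin chains against passage number in each library. Filled circles are replicate 1, open triangles replicate 2, and the line joins the means; Lama5, Lamb1, Lamb2 and Lamc1 are lower in all libraries of P6 and P10 than in those of P2 and P4, and the 2 libraries of P10 differ most for Lama4 and Lama5.

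Between successive passages no member and no other feature passed limma's test (0% of 13521 features at each step). At an unadjusted p under 0.05 there were 285 features from P2 to P4, 3450 from P4 to P6 and 1273 from P6 to P10. Among the members these were Col4a1, Col4a2 and Nid2 from P2 to P4, with log2 differences of 1.62, 1.18 and 0.88. Lama5, Lamb1 and Lamb2 followed from P4 to P6, at -1.09, -0.75 and -0.82. Col4a1 alone was below that level from P6 to P10, at -0.45. With edgeR the adjusted counts were also 0. DESeq2 called 10 features from P2 to P4, Col4a1 among them, then 463 from P4 to P6, with Lamb1 among them, and 67 from P6 to P10, with no member.

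The late passages were also compared with the early adapted ones, P6 and P10 against P2 and P4, a contrast added after the values were seen. Lama5, Lamb1, Lamb2 and Lamc1 fell and Col4a1 rose, so 5 of the 8 members passed, beside 8.14% of all features (5% rose and 3.14% fell). For each of the 4 laminin chains the 4 late libraries lay wholly below the 4 early ones, and the share of all features separated in this way is not given here. The log2 differences were -1.28 for Lama5, -0.90 for Lamb1, -0.95 for Lamb2 and -0.72 for Lamc1. Their limma adjusted p-values were 0.0351, 0.0233, 0.0431 and 0.0274. Col4a1 was higher by 0.51 (limma adjusted p 0.0456), with overlapping libraries. Col4a2, Lama4 and Nid2 did not pass, at 0.61, -0.62 and 0.12 (limma adjusted p 0.102, 0.191 and 0.642). The number of members called ranged from 0 to 6 when 1 library was left out. Without both P6 replicate 2 and P10 replicate 1, the 4 laminin differences were -0.92, -0.74, -0.58 and -0.70.

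**Figure D3:**
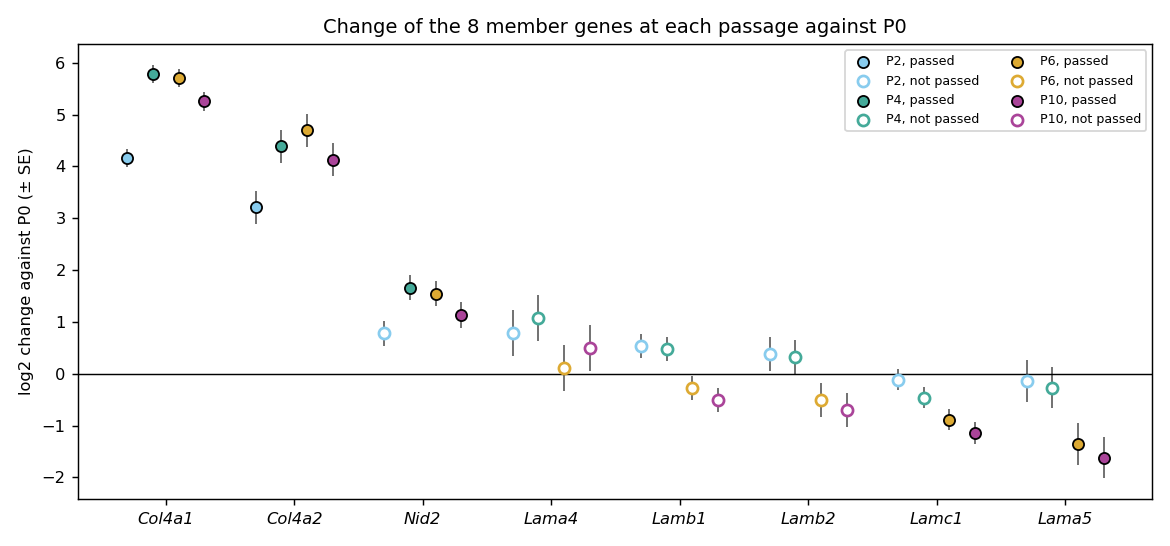
Log2 difference from P0 (vertical axis, ± SE) of each member at P2, P4, P6 and P10. Filled points passed limma's test at an adjusted p under 0.05 and open points did not; Col4a1 and Col4a2 lie between 3.21 and 5.78, and Lama5 and Lamc1 reach -1.62 and -1.14 at P10.

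Ratios between members within a library do not depend on its size factor. Transcript lengths were not used here, so only the change of a ratio is read, not its level. Reads of Col4a1 per read of Lamc1 were 0.00760 and 0.00808 at P0, 0.171 and 0.138 at P2, 0.604 and 0.602 in the P4 libraries, 0.851 and 0.684 in those of P6, and 0.649 and 0.689 in those of P10. This ratio was higher at each passage up to P4 with no overlap, and the P6 and P10 libraries were all above those of P4. The Lamb1 to Lamc1 ratio was 1.37 and 1.55 at P0 and lay between 1.96 and 2.97 in all 8 later libraries. Lama5 per Lamc1 was 1.002 and 0.774 at P0, 0.727 and 0.555 at P6, and 0.450 and 0.891 at P10, so P10 overlapped with P0. Per read of Col4a2 there were 15.3 reads of Col4a1 in both P0 libraries and 23.6 to 35.1 in the later ones. Pooled over the 2 libraries this ratio was 15.3 at P0, with an exact 95% counting interval of 7.85 to 34.2, and 34.0 (29.7 to 39.0) at P4. The interval at P0 overlaps those of all later passages. The 5 laminin members together held 0.335% and 0.235% of normalised reads at P0, 0.306% and 0.325% at P2, 0.275% and 0.291% in the P4 pair, 0.206% in both libraries at P6, and 0.137% and 0.161% at P10.

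**Figure D4:**
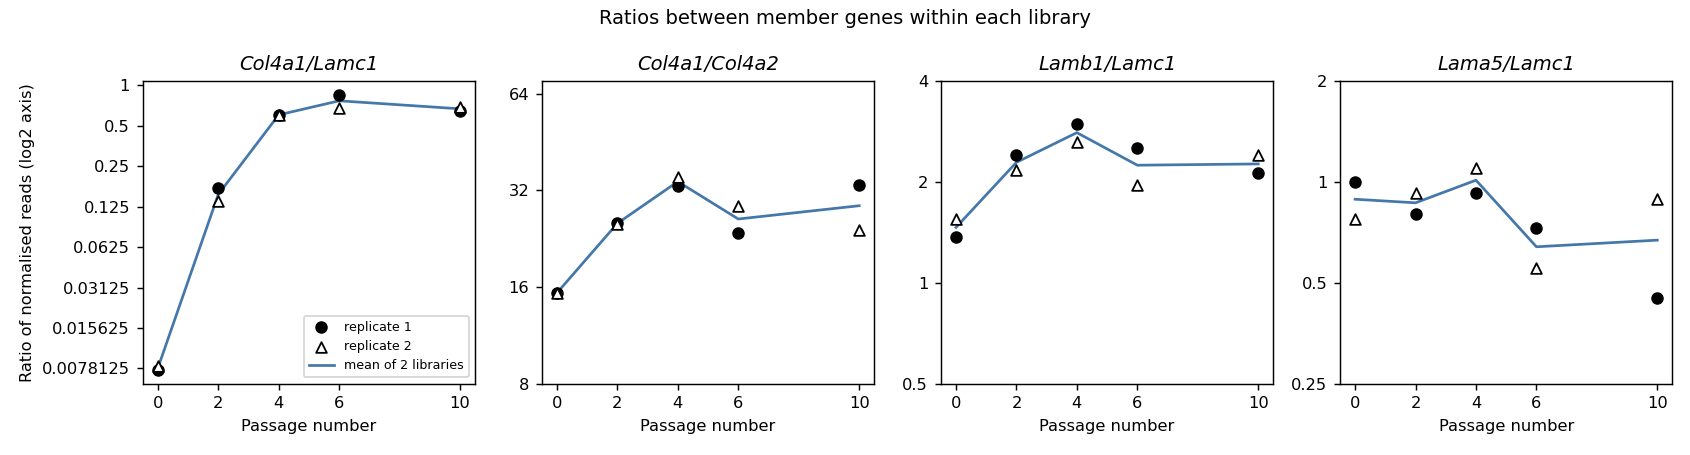
Ratios of reads between members within each library (log axes), against passage number. Filled circles are replicate 1 and open triangles replicate 2; Col4a1 per Lamc1 goes from 0.00760 and 0.00808 at P0 to 0.604 and 0.602 at P4.

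A feature named Hspg is listed in the table. It is not paired with Hspg2 by the sources used here and is not counted as a member. Its libraries held 5650 and 3451 normalised reads at P0, 2731 and 2909 at P2, 1407 and 1786 in the P4 libraries, 881 and 1218 in those of P6, and 785 and 1215 in those of P10. Every later library was below both P0 libraries, and those from P4 on were below those of P2. The log2 difference was -0.65 at P2 (limma adjusted p 0.299), and it fell by 1.48, 2.09 and 2.18 at P4, P6 and P10 (limma adjusted p 0.0193, 0.00344 and 0.00318). The P4 call was lost without P0 replicate 1 or without either P4 library, at limma adjusted p-values up to 0.172.

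Over the 10 libraries the members fell into sets that moved alike, given here as a description over libraries that share passages and scaling. Pearson's r on log2 values was 0.994 between Col4a1 and Col4a2, whose genes are neighbours in the RefSeq table, and 0.939 between Col4a1 and Nid2. Among the laminins it was 0.926 for Lama5 with Lamc1, 0.930 for Lamb1 with Lamb2 and 0.903 for Lama5 with Lamb2. For Col4a1 with the laminins it was -0.67 for Lamc1, -0.50 for Lama5, -0.16 for Lamb2, -0.04 for Lamb1 and 0.43 for Lama4. Lama4 itself was closest to Lamb1, at 0.57. Of 9275 genes with a mean of at least 50, those most like Col4a1 were Col4a2, then Star (0.990), Il33 (0.986), Ugt2a1 (0.984) and Tpst1 (0.980). Star, which carries cholesterol into mitochondria for steroid synthesis, had means of 213 at P0, 1707 at P4 and 1250 at P10. Il33, a cytokine of the interleukin-1 family, went from 42.8 at P0 to 455 at both P4 and P10. Lama5 was most like Cntnap1 (0.982), Fam20c (0.978), Magee1 (0.978), Capn5 (0.977) and Dync1h1 (0.971). For Lamc1 the closest were P2ry1 (0.986), Tnfrsf1a (0.977), Stat3 (0.974), Notch3 (0.972) and Nfatc1 (0.969).

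The summed leukocyte markers were higher at each later passage than at P0. Their values were 62.7 and 71.9 normalised reads at P0, 122 and 124 at P2, 194 and 221 in the P4 libraries, 161 and 208 in those of P6, and 174 and 116 in those of P10, with all 8 markers matched. Of the 5 tested, Itgax and Cd68 rose and 0 fell: 1 marker at P2, 2 at P4, 2 at P6 and 1 at P10. Of all features 2.08%, 3.72%, 10.5% and 8.77% rose at these passages. Ptprc, Laptm5 and Fcer1g passed at none, with log2 differences at P6 of 0.73, 3.06 and -1.26. Itgax, an integrin subunit of myeloid cells, was at 0 and 1.44 at P0, 71.2 and 78.1 at P4, and 18.6 and 32.8 at P10, and it passed at all 4 passages. Itgax met the filter on low values only through the passages after P0, where it was high, and Laptm5 only through P6 and P10. Cd68, a lysosomal protein abundant in macrophages, was at 32.2 and 37.4 at P0, 82.1 and 97.9 at P4, and 93.9 and 111 at P6. It passed at P4 and P6 (limma adjusted p 0.0296 and 0.0121), and at P6 not without P6 replicate 2 (0.0520). Cd14 and Tyrobp, also myeloid, did not exceed 0.780 and 1.04 in any library. The summed markers of endothelial cells ranged from 129 to 224 with 9 of 10 matched, and those of granulosa cells of the ovary from 32.8 to 80.9 with 4 of 6 matched. Epithelial markers, 5 of 8 matched, ranged from 64.0 to 351, nearly all of it Cdh1. Their part in the members' changes was not tested.

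Other chains of the same families were few. None of the 4 further collagen IV genes (Col4a3 to Col4a6) was matched. Of 6 further laminin chains 5 were matched and 4 tested. Lama3, another alpha chain, was at 621 and 611 normalised reads at P0, 932 and 933 at P2, and 420 and 317 at P10. The P2 libraries were the highest of these and those of P10 the lowest. It fell at P10 by 0.75 on the log2 scale (limma adjusted p 0.0311), and this call did not hold with each library left out. Lamb3, a further beta chain, lay between 7.02 and 14.4 normalised reads in all libraries and did not pass at any passage.

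Of 24 other basement membrane proteins matched, 15 were tested. None passed at P2, where 15 of 15 did not pass, and 2 rose at P4. At P6 there were 2 that rose and 1 that fell, and at P10 there were 1 and 4, beside 4.15%, 9.24%, 21% and 17% of all features called at the 4 passages. Tinagl1, a secreted matrix glycoprotein, rose from 4098 ± 120 (SD, n = 2) at P0 to 12273 ± 609 at P4, and Pxdn, the peroxidase that forms the sulfilimine cross-links of collagen IV, rose from 6421 ± 652 to 12948 ± 267. Their log2 changes at P4 were 1.58 and 1.02 (limma adjusted p 0.0107 and 0.0164). Agrn, which encodes the heparan sulfate proteoglycan agrin, fell by 0.87 at P6 and by 1.06 at P10 (limma adjusted p 0.0274 and 0.0145). Ntn1, the laminin-related guidance protein netrin, Col18a1 and the small proteoglycan gene Dcn also fell at P10, by 2.45, 1.40 and 0.66 (limma adjusted p 0.00574, 0.0229 and 0.0339). No call of this list that was examined held in all 10 fits that left out 1 library, and Agrn at P6 was not called without P6 replicate 2 (-0.75, limma adjusted p 0.112). The list's median log2 change was 0.18, 0.23, 0.30 and -0.16 at the 4 passages.

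Genes for folding, modifying and exporting collagen moved in both directions. Of 26 tested, 1 rose and 0 fell at P2, 4 rose and 1 fell at P4, 5 rose and 3 fell at P6, and 3 rose and 2 fell at P10, with medians of 0.08, 0.27, -0.07 and -0.20. The share of all features called in either direction was 4.15%, 9.24%, 21% and 17%, so 1 of 26 at P2 and 5 of 26 at P10 lie near it. Fkbp14, a prolyl isomerase of the endoplasmic reticulum, rose at each passage, by 0.87, 1.02, 1.15 and 0.92 on the log2 scale (limma adjusted p 0.0235, 0.00796, 0.00335 and 0.00828). P3h4, part of the complex that modifies collagen lysines, rose by 1.61, 1.80 and 1.12 at P4, P6 and P10 (limma adjusted p 0.0107, 0.00465 and 0.0280). Serpinh1, the collagen chaperone HSP47, went from 5785 ± 7.08 (SD, n = 2) at P0 to 15115 ± 322 at P4, a rise of 1.39 (limma adjusted p 0.0444). P3h2, a prolyl hydroxylase known to act on collagen IV, and Plod2, a lysyl hydroxylase, rose by 2.28 and 1.03 at P6 (limma adjusted p 0.0119 and 0.0220). Crtap, a partner of prolyl hydroxylase in the endoplasmic reticulum, and P4ha1, a catalytic subunit of prolyl hydroxylase, fell at P10 by 1.22 and 0.55 (limma adjusted p 0.00503 and 0.0429). Plod2 at P6 was not called without P6 replicate 2 (0.94, limma adjusted p 0.0884), nor P4ha1 at P10 without P10 replicate 1 (-0.54, 0.0516). Only the calls for Fkbp14 and P3h4 at P6 held with each library left out, of 13 calls examined.

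In the fit of all 10 libraries, the receptors listed for laminin or collagen passed in the downward direction only. Of 13 tested, 2 fell at P2, 3 at P4, 5 at P6 and 6 at P10, and 0 rose at any passage, beside 2.07%, 5.52%, 10.5% and 8.25% of all features that fell. The medians were -0.45, -0.23, -0.78 and -0.75, beside 0.01, 0.03, -0.07 and 0.00 for all features. Without P6 replicate 2 and P10 replicate 1 some also rose, and the share of all features called in that fit is not given here. Ddr2, a receptor tyrosine kinase for collagen, was at 4086 ± 147 (SD, n = 2) at P0 and 1685 ± 54.3 at P2. It fell by 1.28, 1.36, 1.15 and 1.31 on the log2 scale at the 4 passages (limma adjusted p 0.00343, 0.00185, 0.00250 and 0.00160). Itgb1, the beta subunit common to most laminin and collagen integrins, was at 12919 ± 1591 at P0 and 7090 ± 156 at P2. It fell by 0.86, 0.84, 0.78 and 0.86 (limma adjusted p 0.0416, 0.0270, 0.0236 and 0.0176). Ddr1, a related collagen receptor kinase that also binds collagen IV, and Itga3, the alpha subunit of a laminin integrin, fell at P6 by 2.30 and 1.89 (limma adjusted p 0.00443 and 0.00708). Both were also down at P10, by 2.21 and 1.68 (limma adjusted p 0.00567 and 0.0115). Dag1, which encodes dystroglycan, a laminin receptor outside the integrin family, was at 3629 ± 924 at P0 and fell at P4 by 0.92 and at P10 by 1.16 (limma adjusted p 0.0408 and 0.0120). The heparan sulfate proteoglycan gene Sdc4 fell by 1.60 at P6 and by 1.22 at P10 (limma adjusted p 0.0136 and 0.0387). Without P6 replicate 2 its difference at P6 was -1.25 (limma adjusted p 0.0687), and without P10 replicate 1 that at P10 was -0.71 (0.0908). Itga6 and Itga7, alpha subunits of other laminin integrins, passed at no passage, with log2 differences at P10 of 0.31 and -0.06. The calls for Ddr2 at P4, P6 and P10 held with each library left out, 3 of the 13 examined. Those for Itgb1 held in 4, 4, 3 and 6 of 10 such fits at the 4 passages, with limma adjusted p-values up to 0.345, and at P2 it was not called by edgeR. Ddr1, Itga3 and Dag1 were each not called at P10 without P0 replicate 1, nor Ddr1 and Itga3 at P6.

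**Figure D5:**
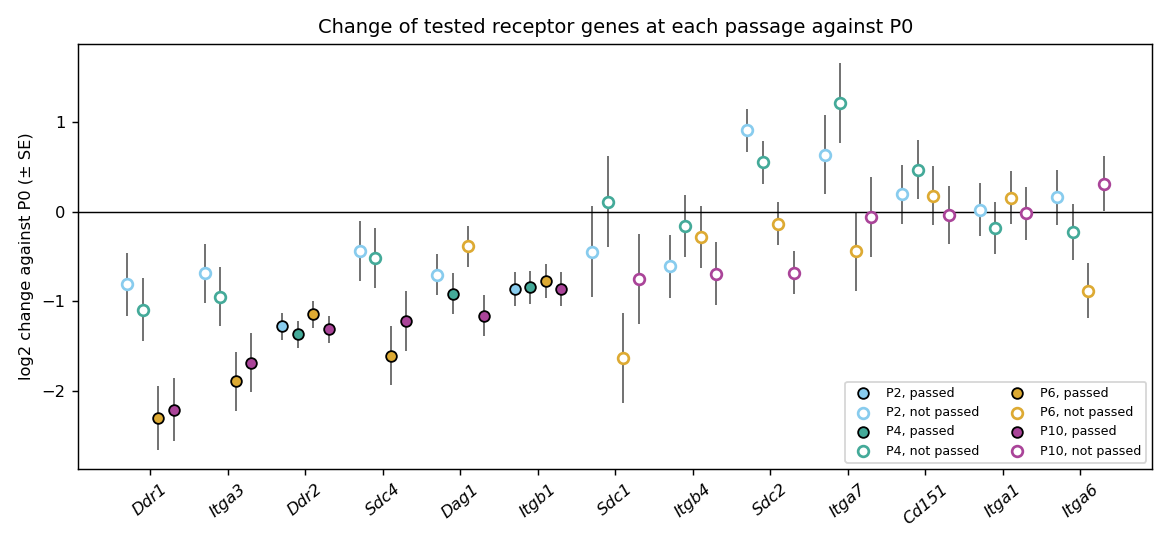
Log2 difference from P0 (± SE) of the 13 tested receptor genes listed for laminin or collagen at each later passage. Filled points passed limma's test at an adjusted p under 0.05 and open points did not; all filled points lie below 0, from -0.78 for Itgb1 to -2.30 for Ddr1.

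Beside the same shares of all features, few of the enzymes that build the laminin-binding glycan of dystroglycan passed: of 15 tested, 0 passed at P2, 1 rose at P4, 1 rose and 1 fell at P6, and 1 rose at P10. The gene that rose was Rxylt1, a xylosyltransferase of that glycan, by 0.82, 1.19 and 1.08 at P4, P6 and P10 (limma adjusted p 0.0248, 0.00412 and 0.00644). Its P6 call held with each library left out, its P4 call held in 4 of 10 such fits, with limma adjusted p-values up to 0.187, and its P10 call was lost without either P0 library (up to 0.0596). Among 16 tested proteases and inhibitors that act on basement membranes, 1 rose at P2, 3 rose and 1 fell at P4, 4 rose and 2 fell at P6, and 3 rose and 3 fell at P10, beside the same shares of all features as above (4.15%, 9.24%, 21% and 17%). Timp1, an inhibitor of matrix metalloproteinases, rose from 1103 ± 3.56 (SD, n = 2) at P0 to 3159 ± 254 at P4, by 1.52 on the log2 scale (limma adjusted p 0.00215). Mmp2, a gelatinase that cleaves collagen IV, met the filter on low values only through the passages after P2. It rose at P10 from 8.82 ± 2.31 at P0 to 68.7 ± 23.2, by 2.81 (limma adjusted p 0.00319). Mmp14, the membrane protease that activates it, and Timp2, the inhibitor involved in that activation, fell at P10 by 1.34 and 0.92 (limma adjusted p 0.00963 and 0.00937). Adamts1, a secreted protease of proteoglycans, fell by 1.03 at P4 and by 1.44 at P6 (limma adjusted p 0.0322 and 0.00600). The calls named for Timp1 at P4 and Mmp2 at P10 held with each library left out, and those for Mmp14, Timp2 and Adamts1 did not: each was lost without P0 replicate 1, at limma adjusted p-values up to 0.251 over the fits that left out 1 library.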

How the data were processed

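Total RNA from the CHO-K1 cells was extracted with TRIzol, depleted of ribosomal RNA and made into stranded libraries, per the labels' protocols. Each deposited signal value is a read count that the authors normalised with DESeq, per the submitters' processing notes. How reads were aligned and counted, and on which build, is not given in the sources used here. Values are whole reads times a constant for each library: 100% came out whole within 0.01 reads. The recovered reads served only the counting intervals, the ratios of reads and the tests with edgeR and DESeq2. For P4 replicate 1 the constant lies so near to 1 that the recovered reads are less certain.

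Names for 16386 of the 20050 features named by gene number came from RefSeq's gene table for CriGri-PICRH-1.0, used for names and neighbours only. Sequences, promoters and transcript lengths were not used here.

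The test was limma 3.58.1 (R 4.3.3) with a trended prior on log2(value + 1), for the 13521 features that averaged 10 or more. One fit of passage means over all 10 libraries left 5 residual degrees of freedom. P-values are two-sided and were adjusted by Benjamini-Hochberg over all features of a comparison, with a threshold of 0.05. Log2 differences include the pseudocount of 1, which understates changes of low genes. Alternatives were pseudocounts of 0.5 and 4, other filters on low values, edgeR 4.0.16 and DESeq2 1.42.0 on recovered reads, equal library totals, the 2 passages alone, a replicate block, and leaving libraries out. The steps were tested on simulated data. All members were named, and up to 4 called genes of smallest p per list and comparison with P0. Itgb1 and Sdc4 are also given at passages where others ranked ahead, as are Itga6, Itga7, Lamb3, Itgax and Cd68, chosen after their values were seen. A few genes that the lists count are not reported here by name. The members and lists were chosen with earlier results of these data known, so they are not independent support.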

Additional observations from a re-analysis of the deposited data

How the results depend on the processing

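Of 1280 results for members under the alternatives, 1140 kept their direction and their side of the threshold, 81 lost a call, 40 gained one and 19 changed sign. With only the passages compared in the fit, the number of members called moved from 2 to 5 at P2, from 3 to 7 at P4, from 5 to 2 at P10, from 0 to 3 from P2 to P4, and from 5 to 0 for P6 and P10 against P2 and P4. Without P6 replicate 2 and P10 replicate 1 together, more members were called at P2, at P4, from P2 to P4 and from P4 to P6. The share of all features called in that fit is not given here. Equal library totals gave 3 at P6 in place of 5 and moved the median of all features there from -0.07 to 0.15. DESeq2 gave 1 member from P2 to P4 and 1 from P4 to P6. At P10 against P0 it gave 6, Lamb1 among them, beside 3021 features called. Using no filter on low values gave 3 in the late contrast. Leaving out 1 library gave 2 to 2 members at P2, 2 to 4 at P4, 2 to 5 at P6, 2 to 7 at P10, 0 to 1 from P2 to P4, 0 to 3 from P4 to P6, 0 to 0 from P6 to P10, and 0 to 6 in the late contrast. The replicate block gave 2, 3, 4 and 5 members against P0, 0 at each step and 1 in the late contrast. Under the block, all features called went from 561 to 261 at P2, from 1250 to 767 at P4, from 2841 to 2024 at P6, from 2301 to 1686 at P10 and from 1100 to 343 in the late contrast. The replicate numbers did not pair the libraries: the differences between replicates correlated between passages at -0.67 to 0.23, over 0.1 in 1 of 10 pairs. Over all alternatives the features called ranged from 61 to 4616 at P2, 143 to 5829 at P4, 412 to 6595 at P6 and 49 to 6256 at P10, from 0 to 569, 0 to 3712 and 0 to 3610 at the 3 steps, and from 16 to 6391 in the late contrast. The sign changes concerned values that had not passed, on the log2 scale. When 1 library was left out, Lama5 ranged from -0.51 to 0.23 at P2 against P0 (above 0 without P0 replicate 1 and, at 0.067, without P2 replicate 1) and from -0.64 to 0.10 at P4, and Lamc1 from -0.30 to 0.071 at P2 (both above 0 without P0 replicate 1). Lama4 ranged from -0.24 to 0.47 at P6 (below 0 without P0 replicate 1 or, at -0.23, P6 replicate 1) and from -0.13 to 1.12 at P10 (below 0 without P10 replicate 2). From P2 to P4, Lama5 ranged from -0.33 to 0.080 (above 0 without P2 replicate 2 or, at 0.049, P4 replicate 1) and Lamb2 from -0.33 to 0.21. From P4 to P6, Col4a1 ranged from -0.18 to 0.018, the latter without P6 replicate 2, alone or with P10 replicate 1, and equal library totals gave 0.20 for Col4a1 and 0.17 for Nid2. From P6 to P10, Lama4 ranged from -0.25 to 1.004, Lama5 from -0.85 to 0.33, Lamb2 from -0.62 to 0.22 (above 0 without P10 replicate 1 or, at 0.12, P6 replicate 1) and Hspg from -0.40 to 0.23 (0.15 without P6 replicate 2). Without both libraries that stood apart, Lama5 was at 0.19 and Hspg at 0.46 in that step. The cause was not tested. With 2 libraries per passage, the differences of Lamb1 and Lamb2 from P0 did not pass limma's test in the fit of all 10 libraries. The 9 reads of Col4a2 at P0 limit the size of its rise.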
